A study of Mus musculus with 18 samples.

Results

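The genes described here encode the replication-dependent histones, the core histones H2A, H2B, H3 and H4 and the linker histone H1 that package newly made DNA. They were chosen by name alone: a gene was taken if its symbol had the form H2ac, H2bc, H3c or H4c with a number, or if the RefSeq gene table listed it under an H1 name of that form or under an older Hist1 to Hist4 name. Of 22180 genes measured on the arrays, 31 met this rule and had a probe set listed for that gene alone. By class, 8 encode H1, 7 encode H2A, 8 encode H2B and 8 encode H4. No H3 gene was among them, because all 12 H3 genes of the RefSeq table lay only on probe sets listed for several histone genes. Over all classes, the table held 71 protein-coding genes of the rule, of which 39 lay only on such shared probe sets and 1 (H1f0, a linker histone made outside DNA replication) was not listed. The 2 pseudogenes that met the rule by an older name, H2af-ps2 and H2bu1-ps, were left out. The rule goes by name and not by timing, so the 31 genes include H1f10, a linker histone known to be made throughout the cell cycle, and forms known from germ cells, namely H1f6, H1f7, H1f8, H2ac1 and H2bc1.

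The series asked how thalidomide, a human teratogen that binds the ubiquitin ligase receptor cereblon, alters gene expression while mouse embryonic stem cells of strain C57BL/6 differentiate. The cells had been kept pluripotent with leukemia inhibitory factor, BMP-4 and a GSK3b inhibitor, and then formed embryoid bodies, free-floating aggregates in which the germ layers begin to form. The 6 groups of 3 arrays were embryoid bodies given 0.25 mM thalidomide from day 3 for 24, 48 or 72 h, and controls of 24, 48 and 72 h without the drug. The treatment protocol gives the control as vehicle at 0.25% DMSO, whereas the design text calls it unexposed and the controls' source names count their hours from embryoid body formation, so a vehicle effect or a shift in stage cannot be told apart from exposure. A re-analysis tag stands in the titles of all 9 controls and of the 3 samples exposed for 24 h, and not in those of the 6 samples exposed for longer. At 24 h all arrays carry it, and at 48 h and 72 h tag and exposure cannot be told apart. The labels call the replicates biological without naming separate cultures, so all p-values measure only the spread between these samples. Correlations between replicate arrays over all genes were 0.992 to 0.996. The cell type on the labels, embryonic stem cell, describes the start of the culture: in controls the pluripotency factor Nanog went from 9.13 ± 0.21 at 24 h to 4.82 ± 0.33 at 72 h, and the heart muscle troponin gene Tnnt2 from 6.68 ± 0.19 to 10.78 ± 0.04 (log2 signal, SD, n = 3).

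Cells make most of their histone mRNA while they copy their DNA, and remove it when replication stops. These mRNAs end in a conserved stem-loop in place of a poly(A) tail, which the stem-loop binding protein SLBP recognises, and their genes stand in clusters around bodies organised by NPAT. Some of the genes, among them H1f2, H2bc12 and H2bc21, are also described as giving polyadenylated mRNA in cells that leave the cycle. The arrays were hybridised with total RNA labelled by a whole-transcript kit, which does not select for poly(A), so mRNAs of both kinds can give signal.

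Promoters of 3 of the genes called lower at 24 h or 48 h are shown to make their class elements visible. The sequences are the 250 bases before the annotated start, from RefSeq (GRCm38.p6), written 5′ to 3′ in the direction of the gene. Those of H2bc12 (chr13:22035571-22035820, plus strand), H4c17 (chr13:21811496-21811745, plus strand) and H4c9 (chr13:22041363-22041612, minus strand) lie on chromosome 13. Capitals mark the octamer ATTTGCAT and the box CCAAT, on either strand, in H2bc12, and the element GGTCCG in the H4 genes.
H2bc12: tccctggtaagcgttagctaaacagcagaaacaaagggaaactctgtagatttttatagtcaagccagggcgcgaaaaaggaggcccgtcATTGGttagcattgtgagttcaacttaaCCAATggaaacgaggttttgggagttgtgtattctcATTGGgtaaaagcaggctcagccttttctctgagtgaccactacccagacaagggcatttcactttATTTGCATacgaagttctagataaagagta
H4c17: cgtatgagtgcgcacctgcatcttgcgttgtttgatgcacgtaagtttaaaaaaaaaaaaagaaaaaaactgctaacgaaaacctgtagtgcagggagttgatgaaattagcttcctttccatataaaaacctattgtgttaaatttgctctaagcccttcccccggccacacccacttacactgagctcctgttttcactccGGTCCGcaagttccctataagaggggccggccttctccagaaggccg
H4c9: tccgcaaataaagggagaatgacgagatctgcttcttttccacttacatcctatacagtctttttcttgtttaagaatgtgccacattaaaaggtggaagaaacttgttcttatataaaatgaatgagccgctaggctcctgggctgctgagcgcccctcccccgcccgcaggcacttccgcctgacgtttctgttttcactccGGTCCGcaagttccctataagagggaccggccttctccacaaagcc

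In H2bc12 the octamer, the binding sequence of the factor Oct-1, began 30 bases before the start. In H4c17 and H4c9 the element GGTCCG began 47 and 46 bases before it, inside a run of 38 bases that both promoters share. That run is shown because it is the longest stretch common to the pair.
Shared run of H4c17 and H4c9: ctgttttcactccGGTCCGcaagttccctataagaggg

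Of the 31 genes, 29 had a promoter entry, and H2bc21 and H4c14 had none. Within 300-base windows around the start (250 before and 50 after), searched on both strands, ATTTGCAT was present in 5 of 7 H2B, 4 of 7 H2A, 0 of 8 H1 and 0 of 7 H4 promoters, against 1.74% of all 32851 promoters of the table. GGTCCG was present in 6 of 7 H4 promoters (not in that of H4c1), 1 of 8 H1 (H1f10), 1 of 7 H2B (H2bc9) and 0 of 7 H2A, against 8.25% of all. In H4c8 it began 5 bases before the start, and in H4c2 after it. The box CCAAT occurred in 7 of 7 H2A, 7 of 7 H2B, 6 of 8 H1 and 1 of 7 H4 promoters, against 37.4% of all, and TATAAA in 16 of the 29, against 13.6%. These are matches of letters and not measured sites. H2bc12 and the H2A gene H2ac12 are divergent neighbours whose windows overlap by 277 bases, so their octamer is counted for both. The octamer and CCAAT matches of H2bc1 and H2ac1 also mirror each other on opposite strands. The H2A and H2B counts thus partly hold the same letters.

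Mean signals over the 18 arrays ran from 1.91 for H2bc1 to 11.97 for H4c12, on the deposited log2 scale. Of the 31 genes, 13 lay in the brightest 25% of all genes, 13 below the median and 6 in the dimmest 25%, among them H2bc1 (1.91), H2ac12 (2.62) and H4c2 (2.95). No background values were used, so a low signal could not be told from background. The highest mean signal of each class was that of H1f10 (8.41), H2ac10 (11.79), H2bc12 (9.77) and H4c12 (11.97). Signals of different probe sets do not rank the abundance of their mRNAs.

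A few histone genes were lower in thalidomide-exposed samples: H2bc12 at both 24 h and 48 h, 3 H4 genes at 24 h, and H4c17 and H1f10 at 48 h. H2bc12, whose calls passed in every setting tried, was read on the probe set listed for it alone. It lay 2.10-fold below control at 24 h and 2.25-fold below at 48 h and overlapped with the controls at 72 h. At 24 h, 4 of the 31 genes fell (H2bc12, H4c14, H4c8 and H4c9) and 0 rose at an adjusted p under 0.05, against 5.43% of all genes called lower and 1.42% called higher (limma with Benjamini-Hochberg adjustment over 22180 genes). At 48 h, 3 fell (H2bc12, H4c17 and H1f10) and 1 rose (H2ac1), against 4.23% and 1.85% of all genes. At 72 h, limma called 0 of 31 in either direction, against 0.00902% of all genes. There 5 of 31 had an unadjusted p under 0.05, as did 9.12% of all genes. At 24 h 2 of the 31 were called lower without control replicate 1 or 3 or exposed replicate 1 of that time. At 48 h 7 were called lower without exposed replicate 1 of 24 h, and 5 without exposed replicate 3 of 24 h, exposed replicate 1 of 48 h or control replicate 3 of 72 h, since all arrays share the fitted spread.

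The median log2 change of the 31 genes was -0.13 at 24 h, -0.23 at 48 h and 0.12 at 72 h, beside medians over all genes of -0.01, 0.01 and 0.00. The change was below 0 in 21 of 31 genes at 24 h and in 26 of 31 at 48 h, where 51.5% and 48.8% of all genes were below 0. At 72 h it was below 0 in 5 of 31, against 48.7% of all genes. All 3 exposed arrays lay below all 3 controls for 11 of the 31 at 24 h (15.9% of all genes) and for 15 at 48 h (16.9%), and above them for 1 at 24 h (H1f2; 9.23%) and 1 at 48 h (H2ac1; 12.3%). At 72 h they lay above in 8 of the 31 (7.27%) and below in 0 (7.51%). Changes moved with signal over all genes: in the brightest 25% the median was -0.08 at 24 h, -0.06 at 48 h and -0.02 at 72 h, whereas the 13 histone genes among these had medians of -0.16, -0.25 and 0.17.

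By class, the medians at 24 h were 0.08 for H1, -0.06 for H2A, -0.17 for H2B and -0.29 for H4. At 48 h they were -0.10, -0.23, -0.30 and -0.25. The change was below 0 in 7 of 8 H4, 7 of 8 H2B, 4 of 7 H2A and 3 of 8 H1 genes at 24 h, and in 8 of 8, 7 of 8, 6 of 7 and 5 of 8 at 48 h. Few of these passed: 3 H4 genes and 1 H2B gene were called lower at 24 h, and 1 gene each of H4, H2B and H1 at 48 h. Averaged over the 8 H2B genes, the arrays read 6.55, 6.42 and 6.56 in control and 6.27, 6.15 and 6.26 in exposed samples at 24 h, and 6.56, 6.53 and 6.48 against 6.19, 6.18 and 6.05 at 48 h. The H4 means read 7.04, 6.94 and 7.07 against 6.60, 6.61 and 6.82 at 24 h, and 7.21, 7.19 and 7.11 against 6.94, 6.82 and 6.66 at 48 h. The H2A means read 7.02, 6.95 and 7.05 against 6.92, 6.82 and 6.86 at 24 h, and 6.96, 6.92 and 6.95 against 6.88, 6.71 and 6.61 at 48 h. In these 3 classes every exposed array of 24 h and 48 h lay below every control array of that time. The H1 means overlapped at 24 h, and at 48 h they read 6.59, 6.65 and 6.70 against 6.57, 6.55 and 6.43, again without overlap. The exposed array with the lowest mean over all 31 genes was replicate 3 at 48 h (6.43, against 6.56 and 6.64).

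**Figure D1:**
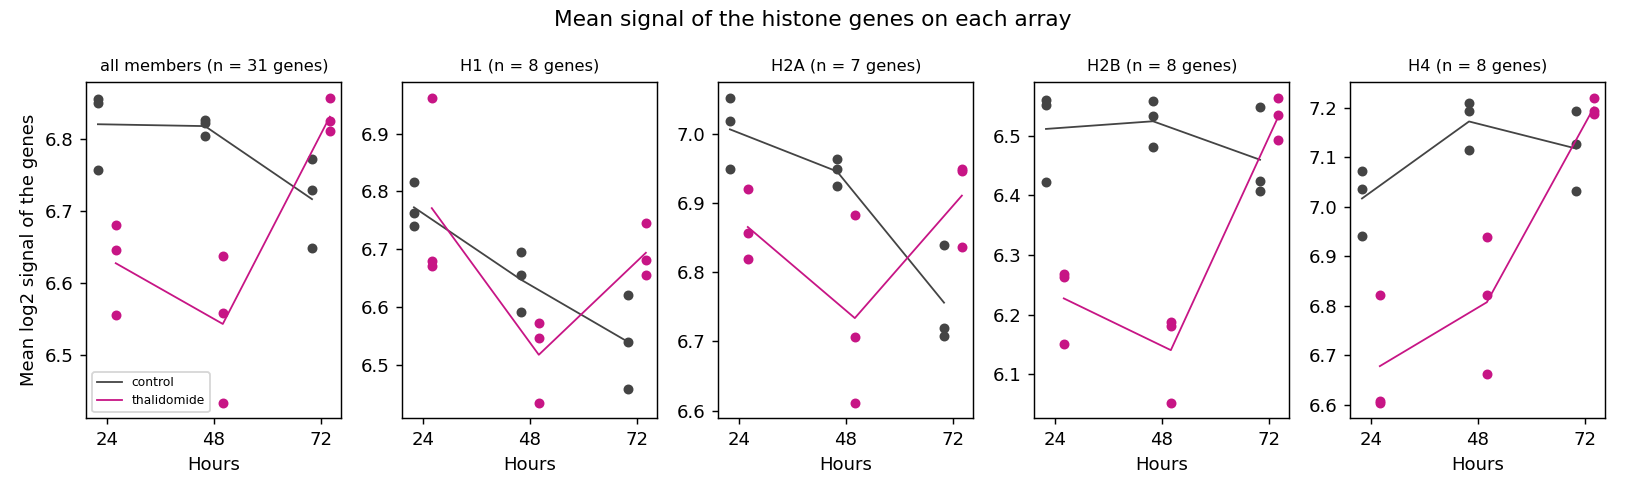
Mean log2 signal of the histone genes on each array (1 point per array) for all 31 genes and for each class, against hours, with lines through the group means of control (grey) and thalidomide (pink) samples. The H2A, H2B and H4 means of exposed arrays lie below those of controls at 24 h and 48 h, and the H1 means do at 48 h. At 72 h the H2A, H2B and H4 groups overlap, and the exposed means of H1 and of all 31 genes lie above the controls.

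H2bc12, an H2B gene, read 10.15, 10.16 and 10.26 on the control arrays of 24 h and 9.35, 8.98 and 9.04 on the exposed ones. At 48 h the controls read 10.08, 10.06 and 10.14 and the exposed arrays 8.96, 8.84 and 8.96. At 72 h the readings were 10.22, 10.14 and 9.80 against 10.27, 10.20 and 10.23. The groups were clearly apart at 24 h and 48 h and overlapped at 72 h. The log2 change was -1.07 ± 0.10 (SE; 2.10-fold lower; adjusted p = 7.47e-05) at 24 h and -1.17 ± 0.10 (2.25-fold lower; adjusted p = 3.97e-05) at 48 h by limma. At 72 h it was 0.18 ± 0.10 (95% interval -0.04 to 0.40; adjusted p = 0.664). Both calls passed in all 8 alternative settings and without each of the 18 arrays, among which the change ran from -1.18 to -0.997 at 24 h and from -1.19 to -1.13 at 48 h. The shared sets 17285691 and 17285710 list H2bc12 together with other H2B genes, and they differed less. Mean signals of the first were 12.45 in control and 12.28 in exposed samples at 24 h, and 12.35 and 12.13 at 48 h. Those of the second were 6.52 and 6.23, and 6.36 and 6.16. Both mix several genes, so H2bc12 alone cannot be read from them. For the divergent neighbour of H2bc12, H2ac12, whose probe set is dim, the changes were 0.05, -0.36 and 0.05 at the 3 times, with overlapping groups throughout.

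The other H2B genes did not pass at single times. H2bc14 read 6.53, 6.28 and 6.42 against 6.09, 6.11 and 6.02 at 24 h and 7.11, 6.86 and 6.81 against 6.57, 6.66 and 6.60 at 48 h. Its groups did not overlap at either time, with changes of -0.34 ± 0.11 (SE; adjusted p = 0.0742) and -0.32 ± 0.11 (adjusted p = 0.0921). H2bc9, chosen after its values were seen, had changes of -0.49 ± 0.22 and -0.70 ± 0.22 (SE; adjusted p = 0.198 and 0.0662), with groups that overlapped at 24 h and were apart at 48 h. H2bc3, with a mean signal of 9.73, had changes of -0.24 and -0.35. Of the others described as also polyadenylated, H2bc21 (H2B) had changes of -0.10 and -0.28 and the linker gene H1f2 of 0.15 and -0.19. The germ-cell form H2bc1 was dim on all arrays and had changes of -0.05 and 0.01.

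The H4 genes all encode the same or nearly the same protein. H4c14, H4c8 and H4c9 were called at 24 h and H4c17 at 48 h, but the difference of the effect between these times was called by limma for none of the 31 genes. H4c17 read 7.72, 7.62 and 7.70 in control and 6.90, 6.74 and 5.87 in exposed samples at 48 h. The exposed arrays were all lower, and replicate 3 stood below the other two. Its change was -1.17 ± 0.21 (SE; 2.26-fold lower; adjusted p = 0.00550), and the call was lost where only the 6 arrays of 48 h were fitted (adjusted p = 0.0601). At 24 h H4c17 read 7.76, 7.51 and 7.76 against 6.91, 6.91 and 7.26, again without overlap, with a change of -0.65 ± 0.21 that did not pass (adjusted p = 0.0822). H4c9 read 7.70, 7.74 and 7.86 against 7.15, 7.29 and 7.59 at 24 h. All exposed arrays were below the controls, with a change of -0.42 ± 0.09 (adjusted p = 0.0140). At 48 h, where they were again all lower, it was -0.25 ± 0.09 (adjusted p = 0.128).

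H4c14 read 6.06, 5.51 and 5.74 in control and 4.78, 5.30 and 5.15 in exposed samples at 24 h. The groups did not overlap, and the change was -0.69 ± 0.15 (SE; 1.62-fold lower; adjusted p = 0.0105). At 48 h its groups overlapped, with a change of -0.05 ± 0.15 (adjusted p = 0.888). H4c8 read 5.20, 5.55 and 5.47 against 4.24, 4.83 and 5.28 at 24 h, so that exposed replicate 3 lay above the lowest control. Its change of -0.62 ± 0.18 only just passed (adjusted p = 0.0456) and passed in 2 of 7 alternative settings. It was lost without any of the 18 arrays other than exposed replicate 3 of 24 h and replicate 1 of 48 h, with a change of -0.35 (adjusted p = 0.186) without exposed replicate 1 of 24 h. The calls of 24 h rested on single arrays in part. H4c14 was lost without control replicate 1 (adjusted p = 0.0565) or exposed replicate 1 (0.0582) of 24 h, and H4c9 without control replicate 3 (0.0728) or exposed replicate 1 (0.0738). With only the 6 arrays of 24 h fitted by limma, H4c14 (adjusted p = 0.0986), H4c8 (0.217) and H4c9 (0.126) were all lost. The bright gene H4c12 had changes of -0.16 ± 0.07 and -0.25 ± 0.07 (SE; adjusted p = 0.237 and 0.0543), with groups apart at 48 h only.

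**Figure D2:**
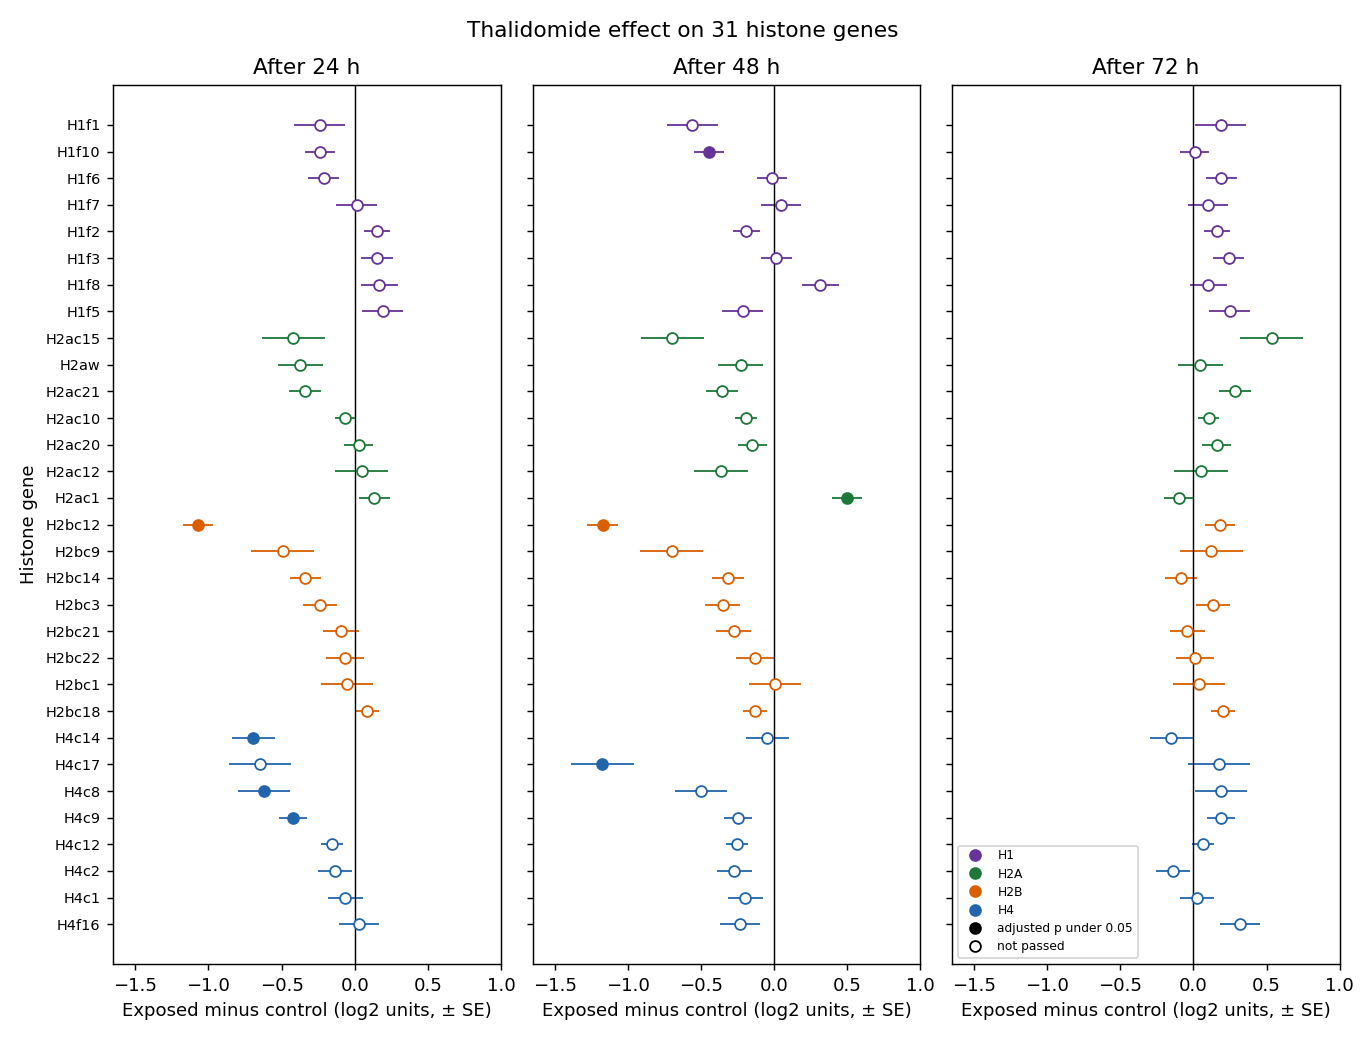
Exposed minus control in log2 units (± SE) for each of the 31 genes at 24, 48 and 72 h, coloured by class and sorted within a class by the change at 24 h; filled points passed an adjusted p of 0.05. Filled points are 4 at 24 h, all to the left of 0, 4 at 48 h, of which H2ac1 lies to the right, and 0 at 72 h.

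H1f10, the linker histone known to be made throughout the cell cycle, read 8.65, 8.72 and 8.72 in control and 8.40, 8.29 and 8.07 in exposed samples at 48 h. The exposed arrays were all lower, with a change of -0.44 ± 0.10 (SE; adjusted p = 0.0196). The call was lost after cyclic loess (0.0533), with only the 6 arrays fitted (0.0645), and without control replicate 2 (0.0582) or 3 (0.0639) or exposed replicate 2 (0.0548) or 3 (0.0823) of 48 h. The S-phase linker genes H1f3 and H1f5 had changes of 0.15 and 0.19 at 24 h and of 0.02 and -0.21 at 48 h, with overlapping groups. H1f1, another somatic linker gene, had a change of -0.56 ± 0.17 at 48 h (adjusted p = 0.0666). The germ-cell linker genes H1f6, H1f7 and H1f8 had changes of -0.21, 0.01 and 0.17 at 24 h and -0.01, 0.05 and 0.32 at 48 h, and none passed by limma at either time.

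H2ac1, an H2A form known from the male germ line, was the only one of the 31 genes called higher at a single time. Its mean signal of 5.14 lay below the median of all genes. In the 25% of genes just below that median, the median change was 0.08 at 48 h. H2ac1 read 4.94, 4.86 and 4.84 in control and 5.58, 5.24 and 5.32 in exposed samples at 48 h. Its exposed arrays were all higher, with a change of 0.50 ± 0.10 (SE; adjusted p = 0.0113). The call was lost where only the 6 arrays of 48 h were fitted (0.0575). In controls H2ac1 fell by 0.38 on the log2 scale from 24 h to 48 h (adjusted p = 0.0200), a fall lost without control replicate 2 of 24 h (0.0830) or control replicate 2 (0.0617) or 3 (0.0605) of 48 h, whereas exposed samples read 5.40 ± 0.14 and 5.38 ± 0.18 (SD, n = 3) at these times. Of 5 male germ cell markers (Ddx4, Dazl and others), 0 were called by limma at 48 h and 0 had an unadjusted p under 0.05. Their mean signal ran from 4.49 to 4.54 over control and from 4.54 to 4.70 over exposed arrays, and its part in the rise of H2ac1 was not tested. The other H2A genes did not pass at either time. H2ac21, which has a second probe set, read 8.86, 8.81 and 8.97 against 8.79, 8.40 and 8.42 at 24 h, and 8.52, 8.54 and 8.62 against 8.24, 8.24 and 8.14 at 48 h. Both times its groups did not overlap, with changes of -0.34 ± 0.11 and -0.35 ± 0.11 (SE; adjusted p = 0.0743 and 0.0673), whereas the dimmer probe set had changes of 0.15 and -0.14.

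**Figure D3:**
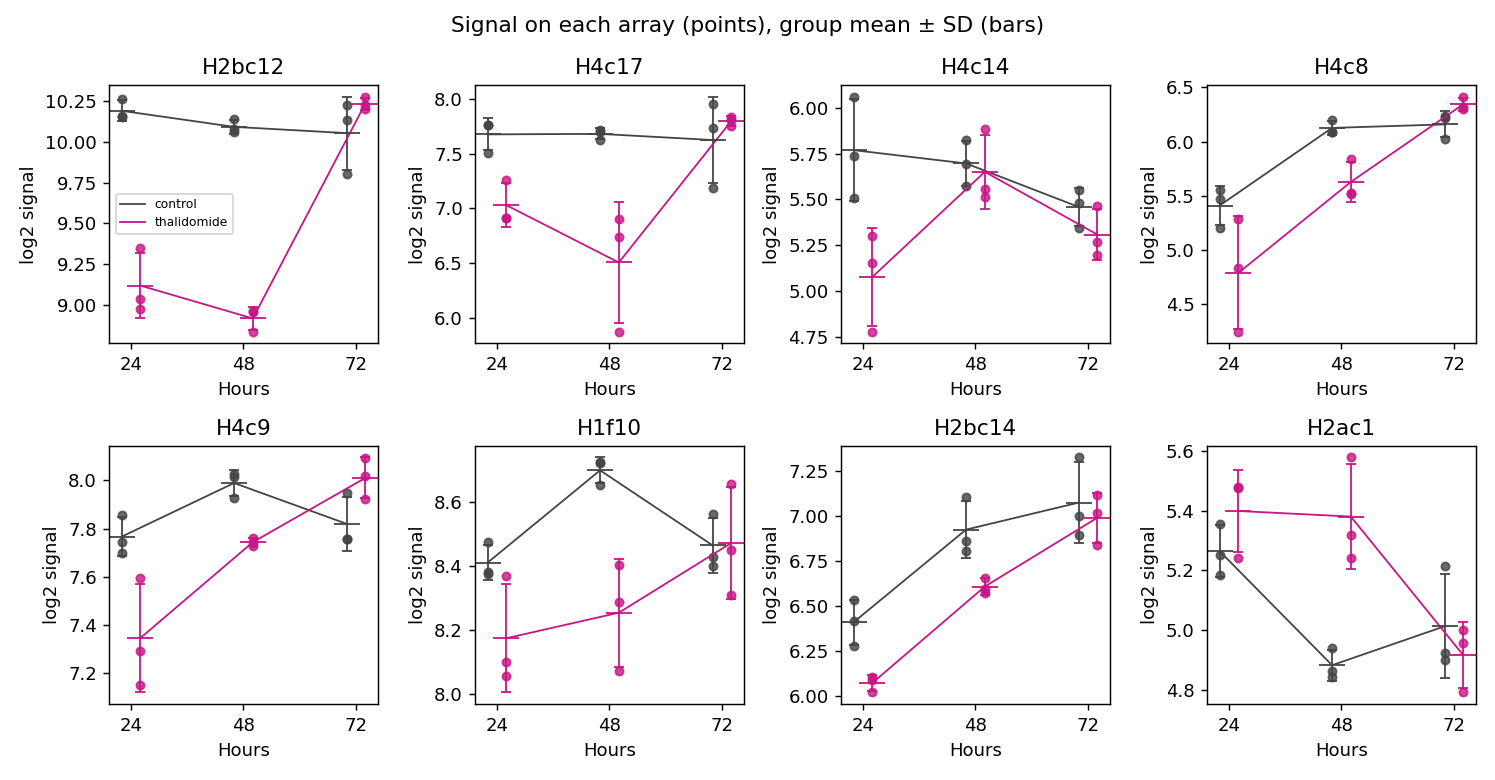
Log2 signal on each array (points) of the 8 genes called at 24 h, at 48 h or in the mean effect over the 3 times, against hours, with group means ± SD (n = 3) for control (grey) and thalidomide (pink). H2bc12 lies between 9.80 and 10.26 in controls, between 8.84 and 9.35 in exposed arrays of 24 h and 48 h, and between 10.20 and 10.27 in those of 72 h.

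At 72 h the change was above 0 in 26 of the 31 genes, with none called by limma. H2ac15, chosen after its values were seen, had a change of 0.53 ± 0.22 at 72 h (SE; adjusted p = 0.455) after -0.42 and -0.70 at 24 h and 48 h. The H4 gene H4f16 read 9.78, 9.75 and 9.28 in control against 9.95, 9.86 and 9.95 in exposed samples, a change of 0.32 ± 0.14 (adjusted p = 0.497). A dimmer probe set of H4f16 (mean signal 6.30) had changes of -0.12 at 24 h, 0.25 at 48 h and 0.17 at 72 h. At 48 h its sign was opposite to that of the set used (-0.23). Control replicate 3 of 72 h was the lowest of its group for H2bc12, H4c17, H2ac15 and H4f16.

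Whether the effect itself differed between times was tested as a difference of changes. From 48 h to 72 h, 1 of 31 genes passed upward, H2bc12 (0.0631% of all genes), and 0 downward (0.0316%). From 24 h to 72 h it was again 1 upward, H2bc12 (0.383%), and 0 downward (0.113%). The effect on H2bc12 was higher at 72 h than at 48 h by 1.35 ± 0.15 (SE; adjusted p = 0.000716) and than at 24 h by 1.25 ± 0.15 (adjusted p = 0.00211), and both differences passed in all 7 alternative settings and without each of the 18 arrays. For H4c17 the difference from 48 h to 72 h was 1.35 ± 0.30 (adjusted p = 0.0738). For H4c9 that from 24 h to 72 h was 0.61 ± 0.13 (adjusted p = 0.0522). The median difference over the 31 genes was 0.32 from 48 h to 72 h and 0.22 from 24 h to 72 h, beside 0.00 and 0.02 over all genes, and in each case 28 of 31 were above 0. From 24 h to 48 h limma called 0 of 31 genes and 0.0% of all, and 3 of 31 had an unadjusted p under 0.05. Without exposed replicate 3 of 24 h, 3 of the 31 were called in the difference from 24 h to 72 h. Exposed arrays of 24 h carry the re-analysis tag and those of 48 h and 72 h do not, so the differences that involve 24 h cannot be told apart from the tag.

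Averaged over the 3 times, 5 of 31 genes were lower in exposed samples and 0 higher, against 9.1% and 3.93% of all genes. The mean changes were -0.69 ± 0.06 for H2bc12 (SE; adjusted p = 9.13e-06), -0.55 ± 0.12 for H4c17 (0.00906), -0.30 ± 0.08 for H4c14 (0.0308), -0.25 ± 0.06 for H2bc14 (0.0172) and -0.22 ± 0.06 for H1f10 (0.0208). After cyclic loess H1f10 (0.107) and H2bc14 (0.0543) were lost. Of the H2A genes H2ac1 had the smallest p, with a mean change of 0.18 ± 0.06 (adjusted p = 0.0586). H4c14 was lost with all probe sets tested (0.0528) and without control replicate 1 of 24 h, 2 of 48 h, 1 or 3 of 72 h, or exposed replicate 1 of 24 h, 2 or 3 of 48 h or 3 of 72 h (0.0512 to 0.0612). Without exposed replicate 3 of 24 h, 8 of the 31 were called lower and 1 higher, and 1 was called higher also without control replicate 2 of 48 h or of 72 h or exposed replicate 2 of 24 h or of 48 h.

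During differentiation of the controls, the histone genes went in both directions, as genes did over the whole array. The counts called were near the shares over all genes, so they do not set the histone genes apart. From 24 h to 72 h, 6 of 31 fell and 3 rose, against 14.3% and 13.1% of all genes. H1f1 read 7.21, 6.81 and 7.24 at 24 h and 6.48, 6.33 and 6.08 at 72 h, a change of -0.79 ± 0.17 (SE; adjusted p = 0.00225) with no overlap. The testis linker gene H1f6 had a change of -0.53 ± 0.10 (adjusted p = 0.00107), also without overlap. Of the H2A genes H2ac21 had a change of -0.58 ± 0.11 (adjusted p = 0.000765), H2ac20 of -0.46 ± 0.10 (0.00240) and H2ac15 of -0.62 ± 0.22 (0.0414). H2ac15 was lost without control replicate 3 of 72 h (change -0.36; adjusted p = 0.231), and without control replicates 1 (0.112) or 3 (0.131) of 24 h or 1 of 72 h (0.0570). The H2B gene H2bc18 had a change of -0.23 ± 0.08 (adjusted p = 0.0465), which was lost without each array other than control replicate 2 of 72 h and exposed replicates 1 and 3 of 24 h and of 72 h (adjusted p up to 0.175).

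The 3 genes that rose in controls were of different classes. H2bc14 read 6.53, 6.28 and 6.42 at 24 h and 7.00, 6.90 and 7.33 at 72 h, higher on every array by 0.66 ± 0.11 (SE; adjusted p = 0.000183). H4c8 read 5.20, 5.55 and 5.47 and then 6.24, 6.02 and 6.22, likewise apart, with a rise of 0.75 ± 0.18 (adjusted p = 0.00437). The H2A gene H2aw (formerly Hist3h2a), which stands outside the large clusters, rose by 0.52 ± 0.15 (adjusted p = 0.0177). Its call was lost without control replicate 3 of 72 h (change 0.29; adjusted p = 0.101) or replicate 2 of 24 h (0.0614). From 24 h to 48 h, 3 genes rose (H2bc14, H4c8 and H2aw; 6.93% of all genes) and 2 fell (H1f1 and H2ac1; 6.7%). The median change of the 31 genes was -0.04 from 24 h to 48 h and -0.11 from 48 h to 72 h. H2ac15, for example, had changes of -0.03 and then -0.60. The fall of H1f1 to 48 h was lost without each of 10 arrays, the rise of H2aw without each control of 24 h or control replicates 1 or 2 of 48 h, and that of H4c8 without control replicate 1 of 24 h (0.0627). Of the 31, 0 were called lower to 48 h without control replicate 2 of 48 h, 1 without any other control of 24 h or 48 h, control replicate 2 of 72 h, exposed replicate 2 of 48 h or any exposed array of 72 h, and 4 without exposed replicate 1 of 24 h, and 1 was called higher without control replicate 1 of 24 h. From 48 h to 72 h limma called 0 of 31 (1 lower without control replicate 1 of 48 h), against 3.62% of all genes called higher and 2.9% lower, with 6 of 31 at an unadjusted p under 0.05. The median change from 24 h to 72 h was -0.14 over the 31 genes and -0.04 over all genes, and it was -0.21 without control replicate 1 and -0.01 without control replicate 3 of 72 h.

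In exposed samples 8 of 31 genes rose and 2 fell from 24 h to 72 h, against 14.4% and 10.6% of all genes. The H4 genes H4c8 (1.56), H4c17 (0.77), H4c9 (0.67) and H4c12 (0.30), the H2B genes H2bc12 (1.11) and H2bc14 (0.92), H2aw (0.94) and H1f10 (0.30) rose, each value a log2 change. H2ac1 (-0.48) and H2ac20 (-0.32) fell. The rise of H1f10 was lost without each of 11 arrays, exposed replicate 1 of 72 h the most (change 0.21; adjusted p = 0.200), and the fall of H2ac20 was lost without exposed replicate 1 of 24 h (0.132) or replicates 2 (0.0792) or 3 (0.0690) of 72 h. H4c17 was lost without exposed replicate 1 of 24 h (0.0526). All 8 H4 genes had a change above 0, with a median of 0.29. The median over the 31 genes was 0.12, beside -0.03 over all genes. The exposed arrays of 24 h and 72 h differ in the re-analysis tag, which cannot be told apart from time here.

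Probe sets listed for several histone genes cover what the 31 genes leave out, the H3 genes included. Of 37 such sets, 3 repeated the values of another, and the other 34 were tested in a fit of all 41345 probe sets. At 24 h 8 of 34 fell and 0 rose (3.17% of all probe sets called lower and 0.941% higher), and at 48 h 10 fell and 0 rose (2.52% and 1.1%). At 72 h limma called 0 of 34, against 0.0% of all probe sets. The median changes were -0.23, -0.40 and 0.06, beside medians over all probe sets of 0.01, 0.01 and 0.00. These sets share genes with each other and with the 31 genes, so they are not separate evidence.

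The H3 signal was lower on some sets and not on others. The set 17408015, listed for 8 H3 genes (H3c2, H3c3 and others), read 6.41, 6.38 and 6.65 in control and 5.77, 5.65 and 6.13 in exposed samples at 24 h. At 48 h it read 7.08, 6.61 and 6.93 against 6.14, 6.19 and 6.46. The exposed arrays were all lower at both times, with changes of -0.63 ± 0.15 (SE; adjusted p = 0.0273) and -0.60 ± 0.15 (adjusted p = 0.0348). The set 17285821, listed for H3c1, H3c8, H3c10 and H3c11, had a change of -0.62 ± 0.15 at 24 h (adjusted p = 0.0315). The set 17291233, of the same 4 genes, had one of -0.61 ± 0.12 at 48 h (adjusted p = 0.0123). Other sets of these 4 genes were not lower at 24 h. The set 17285680 read 6.58, 6.89 and 6.75 in control and 7.07, 6.98 and 6.93 in exposed samples at 24 h. All its exposed arrays were thus higher, and at 48 h its means were 6.95 in control and 6.93 in exposed samples. The dimmer set 17291008 had means of 3.39 in control and 3.52 in exposed samples at 24 h, and 3.39 and 3.41 at 48 h. At each of these times 10 of the 12 H3 sets did not pass, and the median of the 12 was -0.18 at 24 h, -0.45 at 48 h and 0.02 at 72 h.

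Among the shared sets, one listed for H4 genes had changes below -1 at both times. The set 17285846, listed for 13 H4 genes (H4c17, H4c9 and H4c12 among them), read 5.44, 4.47 and 5.96 in control and 4.25, 4.26 and 4.21 in exposed samples at 24 h, and 6.02, 5.71 and 5.82 against 4.97, 4.56 and 4.40 at 48 h. The exposed arrays were all lower, narrowly so against control replicate 2 of 24 h, with changes of -1.05 ± 0.26 (SE; adjusted p = 0.0342) and -1.21 ± 0.26 (adjusted p = 0.0200). In all 5 H4 sets the change was below 0 at both times, with medians of -0.43 and -0.50, and 3 passed at each. The 5 sets of highest mean signal (12.18 to 12.47), listed for H2A or H2B genes, had changes between -0.22 and 0.11 at the 3 times, and the highest signal of any probe set was 13.39. In controls the set 17285746, listed for H2bc7, H2bc11, H2bc13 and H2bc15, rose from 5.52 ± 0.16 at 24 h to 6.90 ± 0.09 at 72 h (SD, n = 3), by 1.38 ± 0.16 (SE; adjusted p = 2.11e-05), the largest of 4 rises and 1 fall among the 34 sets (9.64% and 8.98% of all probe sets).

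**Figure D4:**
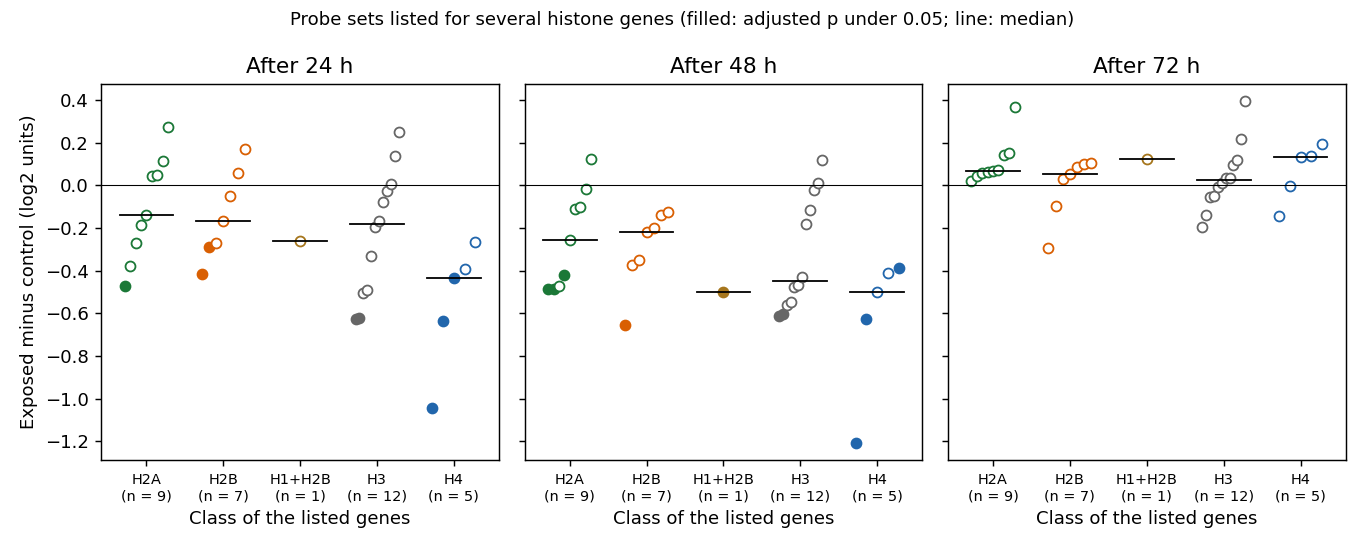
Exposed minus control in log2 units at 24, 48 and 72 h for 34 probe sets listed for several histone genes (1 point per set), by class, with the class median as a line; filled points passed an adjusted p of 0.05. All 5 H4 sets lie below 0 at 24 h and 48 h, and 0 sets are filled at 72 h.

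Of the genes that make, process and carry histones, a few passed. Over all genes, 5.43% were called lower and 1.42% higher at 24 h, and 4.23% and 1.85% at 48 h. Of 23 genes of histone mRNA transcription and processing, 1 rose and 0 fell at 24 h and 2 rose and 0 fell at 48 h: Sympk, the scaffold of the cleavage complex, rose by 0.26 and 0.33 (adjusted p = 0.0214 and 0.00654), and the cleavage factor Cpsf1 by 0.26 at 48 h (0.0307). At an unadjusted p under 0.05 there were 8 of 23 at 24 h and 5 of 23 at 48 h, against 21.2% and 23.3% of all genes. Slbp, which binds the stem-loop, had changes of -0.06, -0.19 and 0.02 at the 3 times (adjusted p = 0.657, 0.0821 and 0.960). The change of Npat was -0.02 at 24 h, -0.13 at 48 h and -0.02 at 72 h (adjusted p = 0.944, 0.366 and 0.974). Of 19 histone chaperones 2 fell at 24 h, Asf1a and Asf1b (changes of -0.39 and -0.29; adjusted p = 0.0126 and 0.0160), and 1 at 48 h, Asf1b (-0.35; 0.00651). Both carry H3 with H4. The median change of the 19 chaperones was -0.06 at 24 h and -0.05 at 48 h. In the brightest 25% of all genes it was -0.08 and -0.06. The mean signal of the 19 chaperones ran from 9.08 to 9.16 over control and 8.97 to 9.07 over exposed arrays at 24 h, from 9.07 to 9.09 and 9.01 to 9.06 at 48 h, and from 9.04 to 9.10 and 9.05 to 9.14 at 72 h, so it was lower without overlap at 24 h and 48 h. Of 9 replacement and variant histones, which are made outside replication as well, 1 rose at 24 h and at 48 h, H2ax, the DNA damage variant of H2A, by 0.28 and 0.31 (adjusted p = 0.0198 and 0.0132).

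Genes of S phase, when these histones are made, gave the following values beside the histone genes. Of 32, 4 fell and 0 rose at 24 h, and 3 fell and 1 rose at 48 h, with medians of -0.08 and -0.06. Over all genes, 5.43% were called lower and 1.42% higher at 24 h, and 4.23% and 1.85% at 48 h. The medians over all genes were -0.01 and 0.01, and those in the brightest 25% of all genes were -0.08 and -0.06. Gins1, a part of the replicative helicase, had changes of -0.55 and -0.58 (adjusted p = 0.00514 and 0.00510), and the primase gene Prim1 of -0.45 and -0.35 (0.00596 and 0.0283). Their mean signal ran from 8.59 to 8.64 over control and 8.52 to 8.53 over exposed arrays at 24 h, from 8.55 to 8.60 and 8.50 to 8.54 at 48 h, and from 8.49 to 8.57 and 8.50 to 8.60 at 72 h. The S phase mean was thus lower in exposed arrays at 24 h and 48 h and overlapped at 72 h. At 72 h limma called 0 of 32, and 0 had an unadjusted p under 0.05. Whether the S phase or chaperone mean fell more than other bright genes did was not tested. The means of the chaperones, the cell cycle inhibitors and the endoderm markers were also lower without overlap at both 24 h and 48 h. Of 19 mitosis genes 3 fell at 24 h (Mad2l1, Cdk1 and Aurkb) and 0 at 48 h, where 2 had an unadjusted p under 0.05. The mitosis mean ran from 9.40 to 9.49 over control and 9.26 to 9.34 over exposed arrays at 24 h, lower without overlap. At 48 h it ran from 9.34 to 9.37 and 9.28 to 9.35, with overlap. Of 10 cell cycle inhibitors 1 fell at each of these times, Cdkn1a, with changes of -0.34 and -0.51 (adjusted p = 0.0408 and 0.00689). The mean of these inhibitors ran from 7.00 to 7.05 over control and 6.85 to 6.95 over exposed arrays at 24 h, from 7.07 to 7.15 and 6.98 to 7.02 at 48 h, and from 7.27 to 7.29 and 7.20 to 7.23 at 72 h, lower at all 3 times. In whole embryoid bodies, fewer cells in S phase and less histone mRNA in each of them cannot be told apart. The part of the S phase genes, mitosis genes, chaperones and inhibitors in the histone changes was not tested.

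Markers of the other cell types in embryoid bodies were read at the same times, beside 5.43% of all genes called lower at 24 h and 4.23% at 48 h. Of 10 pluripotency markers 1 fell at 24 h (Tdgf1, a change of -0.75) and 0 were called at 48 h, where 1 had an unadjusted p under 0.05. Their mean signal ran from 6.98 to 7.12 over control and 6.84 to 6.89 over exposed arrays at 24 h, and from 6.09 to 6.21 and 6.13 to 6.34 at 48 h. Of 5 heart muscle markers 0 were called at 24 h (1 at an unadjusted p under 0.05) and 1 fell at 48 h (Myl7, a change of -1.09). Their mean ran from 5.79 to 6.13 and 5.80 to 5.83 at 24 h, 6.40 to 6.78 and 6.22 to 6.54 at 48 h, and 8.85 to 8.91 and 7.10 to 8.31 at 72 h. Of 5 endoderm markers 0 were called by limma at 24 h (2 at an unadjusted p under 0.05) and 1 fell at 48 h (Cxcr4, a change of -0.42). Their mean ran from 8.43 to 8.51 over control and 8.18 to 8.31 over exposed arrays at 24 h, from 8.37 to 8.53 and 8.14 to 8.24 at 48 h, and from 7.77 to 7.89 and 7.80 to 8.02 at 72 h. Endoderm markers were thus lower without overlap at 24 h and 48 h and overlapped at 72 h, whereas heart muscle markers were furthest apart at 72 h. Other lists were apart too. Primitive streak means ran from 8.16 to 8.23 over control and 7.81 to 7.99 over exposed arrays at 24 h. Blood and endothelium means ran from 5.28 to 5.53 and 5.54 to 5.59 at 48 h, and from 6.32 to 6.43 and 5.71 to 6.26 at 72 h. Neural means ran from 5.99 to 6.56 and 6.67 to 7.46 at 72 h. The part of these cell types in the histone changes was not tested.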

How the data were processed

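Gene expression was measured on 18 arrays (6 groups of 3). The deposited values are log2 signals of each probe set, for which the submitters' processing notes name RMA and Affymetrix Expression Console 1.3. The genome build was not given in the sources used here. RMA gives arrays nearly the same distribution (medians 5.37 to 5.46), so changes are relative to other probe sets, and the number of arrays limits precision. Of 41345 probe sets, 25335 were in the platform table, 23521 with 1 symbol and 1814 with several; 16010 were unnamed. The brightest probe set per gene left 22180 genes; gene identifiers of 23328 sets matched RefSeq. Of the 31 histone genes, 21 were found by symbol, 8 by an H1 synonym and 2 by a Hist synonym.

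The model was limma's (version 3.58.1, R 4.3.3): a mean for each of the 6 groups, fitted gene by gene to the 18 arrays and followed by eBayes, with residual degrees of freedom of 12 and prior ones of 4.35. All tests were two-sided, with Benjamini-Hochberg adjustment over all genes of a contrast and a threshold of 0.05. Changes are ± SE and levels ± SD. The scripts were tested on simulated data. The members and lists were chosen with earlier results of these data known. Named with values were the members called in an exposure contrast, the mean effect or a difference of effects; per class the member of highest mean signal, the one of smallest p in the mean effect and up to 3 called over control time; members with a described role; and up to 3 genes per context list. Of the lists, primitive streak (0 of 4), blood and endothelium (0 of 5) and neural markers (0 of 4) had no call at 24 h or 48 h, and endoderm markers had 0 of 5 at 24 h and 1 of 5 lower at 48 h (Cxcr4, -0.42). At an unadjusted p under 0.05 these lists had 2, 0, 0 and 2 genes at 24 h and 0, 1, 1 and 2 at 48 h. Alternatives were cyclic loess, a filter on dim genes, the mean of probe sets, all probe sets, only the arrays compared, eBayes options, array weights, a replicate block and leaving out each array.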

Additional observations from a re-analysis of the deposited data

Results flagged for a closer look

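The effect of thalidomide on H2bc12 differed between times by the test of the difference itself. It was higher at 72 h than at 48 h by 1.35 log2 units (adjusted p = 0.000716) and than at 24 h by 1.25 log2 units (adjusted p = 0.00211, limma over 22180 genes). All 3 exposed arrays lay below all controls at 24 h and at 48 h, and the groups overlapped at 72 h. The exposed arrays of 72 h lack the re-analysis tag that those of 24 h carry, while those of 48 h lack it too.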

How the results depend on the processing

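Over 8 kinds of alternative and each left-out array, 786 values of counts and medians over the 31 histone genes stayed within their limits and 60 moved; of the values of single called genes, 881 kept their call, 115 were no longer past the threshold and 0 reversed. The counts of members called, lower then higher where both moved, depended on the setting as follows, with the cause not tested except where fewer genes or arrays entered the fit. At 24 h 1 was lower with only the 6 arrays compared. At 48 h 9 lower and 0 higher were called in a fit of the brighter genes, without those under the median signal (18 of the 31 left), 1 and 0 with only the 6 arrays, and 8 lower with trend and robust options or with array weights. In the mean effect 3 were lower after cyclic loess and 8 with trend and robust options. In the difference from 48 h to 72 h 3 were higher among the brighter genes and 5 with trend and robust options, and from 24 h to 72 h 3 among the brighter genes, 2 with the mean of probe sets, and 3 with trend and robust options or array weights. In the control course from 24 h to 48 h 1 was lower with all probe sets and 4 with trend and robust options or array weights, and from 48 h to 72 h 1 with array weights. In the exposed course 1 was lower among the brighter genes, with only the 6 arrays and with array weights. The median change among the brighter genes was -0.24 at 24 h and 0.44 in the difference from 48 h to 72 h. Leaving out each array gave 2 to 5 lower at 24 h, 2 to 7 lower at 48 h, 4 to 8 lower and 0 to 1 higher in the mean effect, and 1 to 3 higher in the difference from 24 h to 72 h. It gave 0 to 4 lower and 1 to 4 higher in controls from 24 h to 48 h, 0 to 1 lower from 48 h to 72 h, and 1 to 2 lower in the exposed course. The medians ran from -0.16 to -0.060 in the difference from 24 h to 48 h, from -0.17 to -0.078 in controls from 48 h to 72 h, from -0.21 to -0.010 in controls from 24 h to 72 h, and from 0.059 to 0.16 in the exposed course. With the replicate block 3 were lower at 24 h, 4 lower and 1 higher at 48 h, and 5 lower in the mean effect. Same-numbered arrays did not deviate together (r = -0.14 to 0.12, over 0.1 in 1 of 9 pairs), so the numbers do not pair the samples.

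The arrays carry no measure of background here, so the 6 dimmest genes have no detection limit. Each group has 3 arrays. All 12 H3 genes and 11 of 18 H2A genes were read only on probe sets shared by several genes, and near-identical copies were not separated.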
